A study of Mus musculus with 2 samples.

Results

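Prostanoids are lipid mediators made from arachidonic acid, and this account describes 10 genes of mouse lung that make them, sense them or remove them. The genes were chosen by name as members of the pathway, and all 10 were found among the 43346 gene rows of both libraries, with 33 transcripts. They are the cyclooxygenases Ptgs1 and Ptgs2, the terminal synthases Ptgis, Tbxas1, Ptges and Ptgds, the receptors Ptgir, Tbxa2r and Ptger4, and the inactivating enzyme Hpgd. Lung tissue of adult C57BL/6J mice, 8 weeks old and from littermates of mixed sex, gave 2 RNA sequencing libraries. The labels list no treatment, transgene or mutation and number the libraries as biological replicates 1 and 2 of a single group. They give both libraries the same donor record with separate tissue samples, and they do not state how many animals were pooled, so part of any gap between them may be technical. With 1 group there was no comparison of conditions and no test, and each difference below is between these 2 libraries only.

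A cyclooxygenase turns arachidonic acid, freed from membranes by phospholipases, into the unstable endoperoxide prostaglandin H2. Terminal synthases convert that intermediate to prostacyclin, thromboxane, prostaglandin E2 or prostaglandin D2, each of which acts on its own G protein-coupled receptors. In the lung, prostacyclin relaxes pulmonary vessels and restrains platelets, thromboxane constricts vessels and airways and activates platelets, and the lung is a main site where circulating prostaglandins are taken up and oxidised.

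Levels are given in TPM (a share of all transcripts, adjusted for transcript length), for replicate 1 and then replicate 2. Gene rows held 48234745 and 44182836 counts. Lung markers fixed as a list were all detected, 7 of 7 for epithelium and 7 of 7 for endothelium, with the club cell gene Scgb1a1 at 122856 and 132546 TPM. Markers of other tissues stood out in replicate 1: all 5 squamous epithelium markers (Krt13, Krt4, Krt6a, Krtdap and Sprr3) and all 5 skeletal muscle markers were more than 2-fold higher there. Their summed levels were 4043 and 0.59 TPM for squamous epithelium and 2689 and 55.8 TPM for skeletal muscle. Smooth muscle markers summed to 1113 and 764 TPM, platelet markers to 156 and 104 TPM, and macrophage markers to 635 and 516 TPM. All 5 neutrophil markers were also higher in replicate 1, 3 of them more than 2-fold, at summed levels of 126 and 46.3 TPM. Of 9 immediate early genes, 8 were higher in replicate 2 both by scaled counts and by TPM, with sums of 379 and 550 TPM. Over all 14708 tested genes, 7318 were higher in replicate 2 by scaled counts and 4555 by TPM. The part of these differences in the results below was not tested.

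Several members had competing transcripts that differ at a single splice junction or intron, and the readings of the deposited estimates turn on these places. They are shown 5′ to 3′ from the reference transcript sequences of GENCODE M21, with positions on mm10. In Ptgis, the prostacyclin synthase gene, the transcripts Ptgis-201 and Ptgis-202 leave the same exon 9 of 10 and join different last exons, and capitals mark the bases of the last exon. Exon 9 ends here at chr2:167206734-167206748, and the last exons begin at chr2:167203454-167203468 and chr2:167191971-167191985, all on the minus strand and all coding.
Ptgis-201: caacagcatcaaacaATTTGTCGTCCTACT
Ptgis-202: caacagcatcaaacaTGGAGGAATCGTCTT
In Ptges, the gene of the inducible prostaglandin E synthase, the coding Ptges-202 and the non-coding Ptges-201 enter the same second exon from different first exons, and capitals mark the bases of the first exon. The first exons end at chr2:30903090-30903104 and chr2:30901714-30901728, and the shared exon begins at chr2:30900935-30900949, on the minus strand.
Ptges-202: AGGCTGCGGAAGAAGgcttttgccaacccc
Ptges-201: AGGGAGGAATTCTGGgcttttgccaacccc
In Ptgs1, the non-coding Ptgs1-203 keeps intron 1, which the coding Ptgs1-201 removes. The stretch chr2:36230560-36230677 on the plus strand shows the 98 bases of the intron in capitals, between 10 exon bases on each side.
Ptgs1-203: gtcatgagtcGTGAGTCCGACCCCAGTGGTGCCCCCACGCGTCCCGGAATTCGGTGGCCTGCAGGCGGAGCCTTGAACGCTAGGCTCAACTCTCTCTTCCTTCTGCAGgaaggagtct
The kept intron starts with GT and ends with AG, the usual letters of an intron, and 64.3% of its bases are G or C. Retention of this intron is the change from which the Ptgs1 variant known as COX3 was first described in dog. The 98 bases in mouse are not a whole number of codons, and Ptgs1-203 is a 573 nt transcript annotated as non-coding. Whether it gives a protein like COX3 was not tested.

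Of the members, 9 stood above 1 TPM in both libraries and 1 did not. Hpgd and Ptgis were the most abundant and Ptgds was the least, with Ptgs1, Tbxa2r and Ptges between them and Ptgir, Tbxas1, Ptger4 and Ptgs2 below 10 TPM. Detection of 9 of 10 members is set beside 13855 of 43346 gene rows, or 32.0%, that reached 1 TPM in both libraries. In the order of mean levels the ranges of Hpgd and Ptgis overlapped, as did those of Tbxa2r and Ptges and of Tbxas1 and Ptger4, so these neighbours did not differ beyond their spread. The other neighbours were apart in both libraries.

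**Figure D1:**
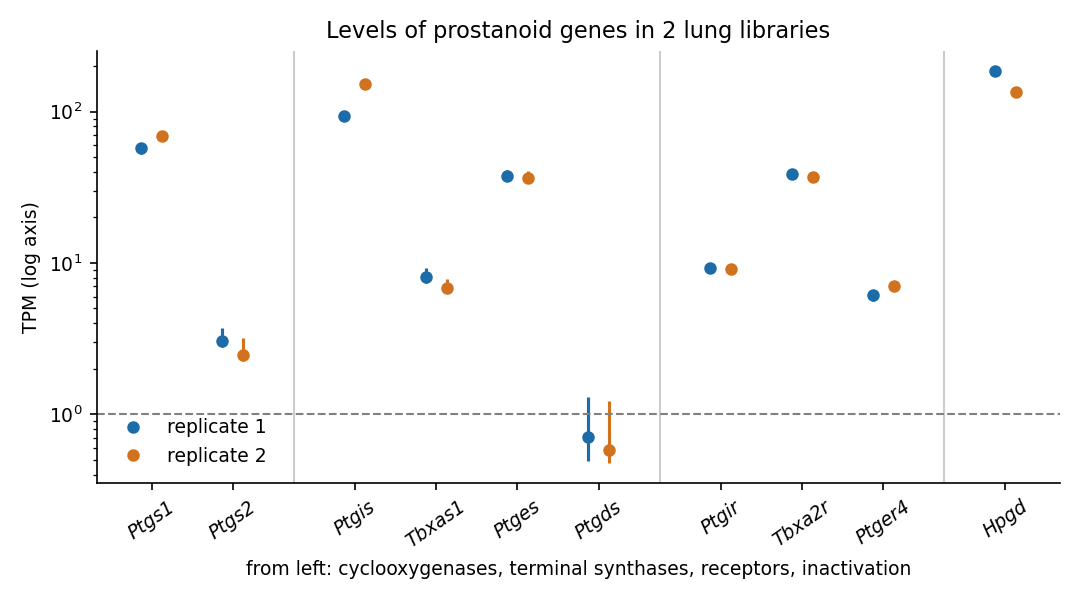
Level of each of the 10 genes in TPM on a log axis, with 1 point per library and the deposited interval of each estimate as a line where it is wider than the point; the dashed line is 1 TPM. Hpgd and Ptgis lie at the top with values from 93.2 to 186 TPM, and Ptgds is the only gene with both points under the line.

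Ptgs1, the constitutive cyclooxygenase (chromosome 2, 36230426 to 36252272, plus strand), stood at 57.3 and 69.1 TPM on 2739 and 3082 counts. Its mean of 63.2 ± 8.33 TPM (SD, n = 2) was above that of 83.8% of genes detected in both libraries. Ptgs2, the cyclooxygenase induced by cytokines and growth factors (chromosome 1, 150100031 to 150108227, plus strand), had 3.03 and 2.48 TPM on 464 and 371 counts. Ptgs2 was therefore present at a low level in both libraries, above only 11.9% of detected genes. It is itself an inducible gene, and its scaled ratio of 0.958 (95% counting interval 0.834 to 1.10), replicate 2 over replicate 1, showed no difference beyond counting error, whereas most immediate early genes were higher in replicate 2. The level of Ptgs1 was 18.9 and 27.9 times that of Ptgs2. On protein-coding transcripts alone, a choice made after seeing the data, Ptgs1 stood at 23.2 and 26.1 TPM and the mean ratio was 9.10. Either way Ptgs1 was the higher cyclooxygenase in both libraries.

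Most of the TPM of Ptgs1 sat on short non-coding transcripts. The coding Ptgs1-201 (2867 nt) took 40.5% and 37.8% of the gene's TPM, although it held 81.4% and 79.4% of the gene's counts. Ptgs1-203 (573 nt, with intron 1 kept) took 30.0% and 29.3% of the TPM on 226 and 259 counts. Ptgs1-204 (666 nt in the quantified annotation, 11.4 and 14.0 TPM) took 19.9% and 20.2%. Because TPM divides by length, few counts on a short transcript weigh as much as many on a long transcript, and these shares depend on how reads of shared exons were divided. All 5 transcripts together gave non-coding shares of 59.5% and 62.2% of TPM, and 18.6% and 20.6% of counts.

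The deposited junction list gives reads that span 2 joined exons, summed over a pair of tallies that no label ties to a replicate. The junction that removes intron 1 of Ptgs1, shown above within Ptgs1-203, had 811 reads, next to 835 for intron 2, which both transcripts remove. Introns 3 and 4 had 749 and 559 reads. Downstream, the 6 remaining introns of Ptgs1-201 had between 63 and 278 reads, fewer than each of the first 4. The non-coding Ptgs1-203 shares the junctions of introns 2, 3 and 4 and ends in exon 5. An unannotated junction of 1586 bases that ends at the acceptor of intron 2 had 81 reads, the most of any unannotated junction among the members. In the later annotation Ptgs1-204 starts with an intron of 841 bases of its own that ends at this same acceptor, and that intron had no line in the list.

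Ptgs2 had 265 reads on the 9 introns of its main transcript, from 86 on the first to 4 on the last. Its single quantified form, Ptgs2-201, took 100% of the TPM in both libraries, and Ptgs2-202 was listed at 0. The 3′ UTR of Ptgs2-201 is 2445 nt long and holds the pentamer ATTTA, the core of AU-rich elements that shorten the life of many inducible mRNAs, 14 times on the transcript strand. That is more copies than in 98.4% of 12990 other detected protein-coding genes, whose median is 1 copy and of which 39.8% have none. The count was not adjusted for length, and the median 3′ UTR of those genes is 828 nt. Per 1000 nt Ptgs2 has 5.73 copies, near the 4.77 of Hpgd and the 4.06 of Ptger4. Among the other members Ptger4 has 5 copies, Hpgd 4 and Ptgir 2, and Ptgs1, Ptgis, Tbxas1, Ptges, Tbxa2r and Ptgds have none. The 2 cyclooxygenases thus differ in this feature, with 0 copies in the 921 nt of Ptgs1-201. A match to these letters is a description of the sequence and no measure of decay.

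**Figure D2:**
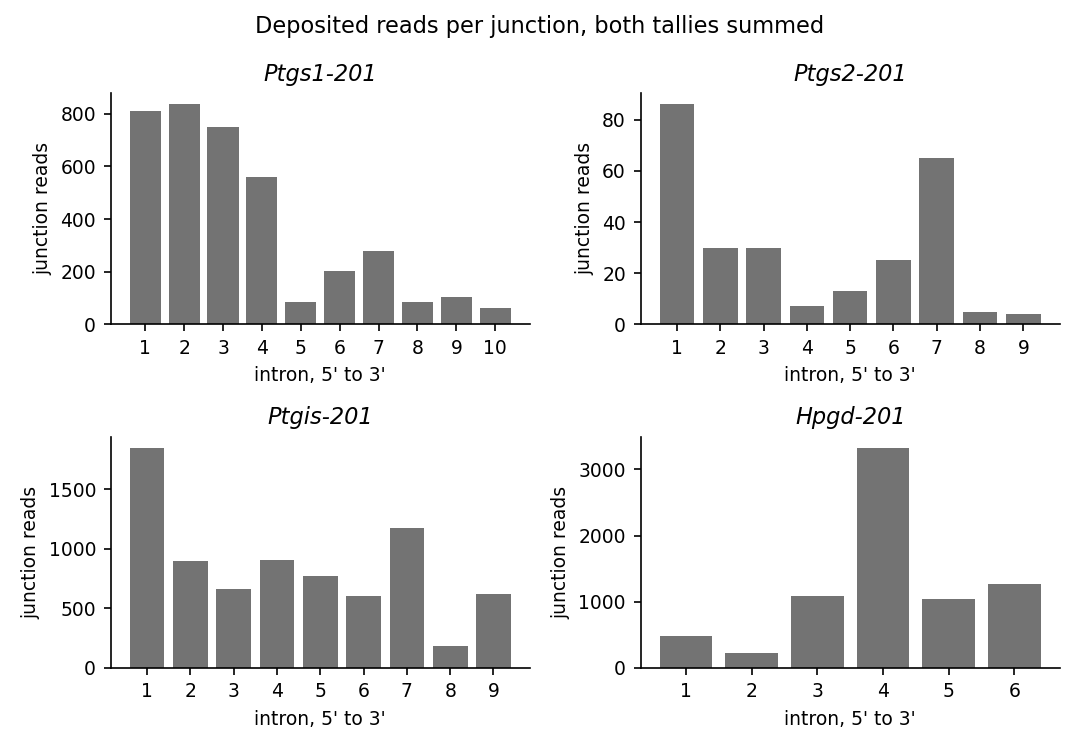
Reads per junction from the deposited list for the introns of 4 coding transcripts, in order from the 5′ end, both tallies summed; each panel has its own linear axis from 0. In Ptgs1-201 the first 4 introns have 559 to 835 reads and the other 6 have 63 to 278, whereas Hpgd-201 has its highest value, 3323, on intron 4.

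Ptgis, which makes prostacyclin (chromosome 2, 167191805 to 167240604, minus strand), was the most abundant terminal synthase, at 93.2 and 152 TPM on 6166 and 9239 counts. Its mean of 122 ± 41.2 TPM (SD, n = 2) was above that of 92.2% of detected genes. Replicate 2 was 1.80-fold higher after scaling (95% counting interval 1.74 to 1.86), the widest gap of any member with enough counts. The interval covers counting error only. This gap did not reach 2-fold, and 9.33% of all tested genes were at least as far apart. On the same scale the smooth muscle markers Acta2, Myh11 and Des were lower in replicate 2 (0.711, 0.721 and 0.706 times replicate 1). Tagln was even at 0.997 and Cnn1 was higher at 1.17. Of 7 endothelial markers 5 were higher in replicate 2: Tie1 (1.49), Cldn5 (1.43), Egfl7 (1.36), Cdh5 (1.12) and Vwf (1.08). The other 2, Pecam1 and Emcn, stood at 0.975 and 0.827. In TPM the endothelial markers summed to 3889 and 4007. The part of either cell type in the Ptgis difference was not tested. In RNA from whole tissue, fewer cells of a type and less RNA per cell cannot be told apart.

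Most of the Ptgis difference in TPM was assigned to Ptgis-202. Ptgis-201 stood at 77.6 and 87.0 TPM on 5320 and 5825 counts. Ptgis-202 stood at 15.6 and 64.5 TPM on 846 and 3414 counts, and its share of the gene's TPM was 16.7% in replicate 1 and 42.6% in replicate 2. On Ptgis-201 alone, a choice made after seeing the data, the log2 ratio on the TPM scale was 0.17, against 0.70 for the gene on the same scale. Ptgis was the only member of 6 tested whose transcript share moved by 20 percentage points or more, beside 13.7% of 7372 genes tested in the same way. The next largest movement among these members was 9.37 points, in Tbxas1.

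The junction list held no line for the join that defines Ptgis-202. Its last intron, between exon 9 and the far last exon shown above, is 14748 bases long, and no junction of that length lies on that strand of chromosome 2. The 624 reads that left exon 9 all used the intron of 3265 bases of Ptgis-201. The other annotated introns of Ptgis had 1846 reads on the first and 181 to 1178 on those shared by both transcripts, with 1 read on an intron that skips exon 8. A count of such cases took genes that reached 5 TPM in each library and transcripts at a mean share of 10% or more, with an intron of their own and the same length in both annotation releases. Among the 8 member transcripts that met this, Ptgis-202 was the 1 without a junction line; Ptgs1-204, whose length differs between the releases, and the transcripts of Ptgds, which is below 5 TPM, were not counted. Over all genes 1423 of 7100 such transcripts, or 20.0%, had none, so an estimated transcript without its own junction was common in these files. An unannotated junction of 14889 bases in Ptgis had 11 reads. It runs from the donor of intron 1 to the acceptor of intron 2 (2007 bases), so it skips exon 2 and is not the last intron of Ptgis-202.

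Tbxas1, the thromboxane synthase gene (chromosome 6, 38875404 to 39084585, plus strand), had 8.02 and 6.78 TPM on 568 and 478 counts. Its scaled ratio was 1.01 (0.891 to 1.14), so the libraries were indistinguishable within counting error. Platelets are a known site of this enzyme, and 5 of 6 platelet markers were higher in replicate 1, as were 5 of 6 macrophage markers. Tbxas1-201, the coding form, took 77.9% and 87.3% of TPM, and its own junction had 88 reads. A retained intron form, Tbxas1-205, held 134 and 82.4 counts but only 10.7% and 7.92% of TPM, being 4562 nt long. The kinase gene Hipk2 overlaps Tbxas1 on the opposite strand with 11586 and 12002 counts, and no source used here says whether the counting used strand. Ptgis exceeded Tbxas1 11.6-fold and 22.4-fold in TPM. The prostacyclin synthase mRNA was thus far above that of thromboxane synthase in both libraries, and the size of the ratio rested on the Ptgis difference.

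Ptges (chromosome 2, 30889471 to 30929863, minus strand) had 37.5 and 36.7 TPM on 2102 and 1849 counts, a scaled ratio of 1.05 (0.990 to 1.12). Its 2 sources of evidence on transcripts differed. The non-coding Ptges-201 (703 nt) took 63.1% and 65.5% of TPM on 422 and 418 counts, whereas the coding Ptges-202 (3647 nt) took 36.0% and 32.1% on 1676 and 1424 counts. The junction that defines Ptges-201 had 2 reads and that of Ptges-202 had 156 reads, and the 305 reads of the next intron belong to a junction that both forms share. On coding transcripts alone Ptges stood at 13.5 and 11.8 TPM. Tbxa2r was near-equal to Ptges at the level of the gene, and its 38.5 and 36.9 TPM lay well above these coding values.

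Ptgds, the lipocalin-type prostaglandin D synthase gene that is abundant in meninges and choroid plexus (chromosome 2, 25466709 to 25470046, minus strand), had 0.71 and 0.58 TPM on 14 and 16 counts. It was the only member below 1 TPM, and with these counts its scaled ratio of 1.37 had an interval of 0.626 to 3.03. Its 5 transcripts shared so few counts that the leading form changed between libraries, from Ptgds-204 to Ptgds-201. Markers of meninges and choroid summed to 8.32 and 4.92 TPM. The haematopoietic prostaglandin D synthase gene Hpgds was also low, at 0.44 and 0.13 TPM on 40 and 15 counts. Both routes to prostaglandin D2 were therefore at the bottom of the scale in these libraries.

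**Figure D3:**
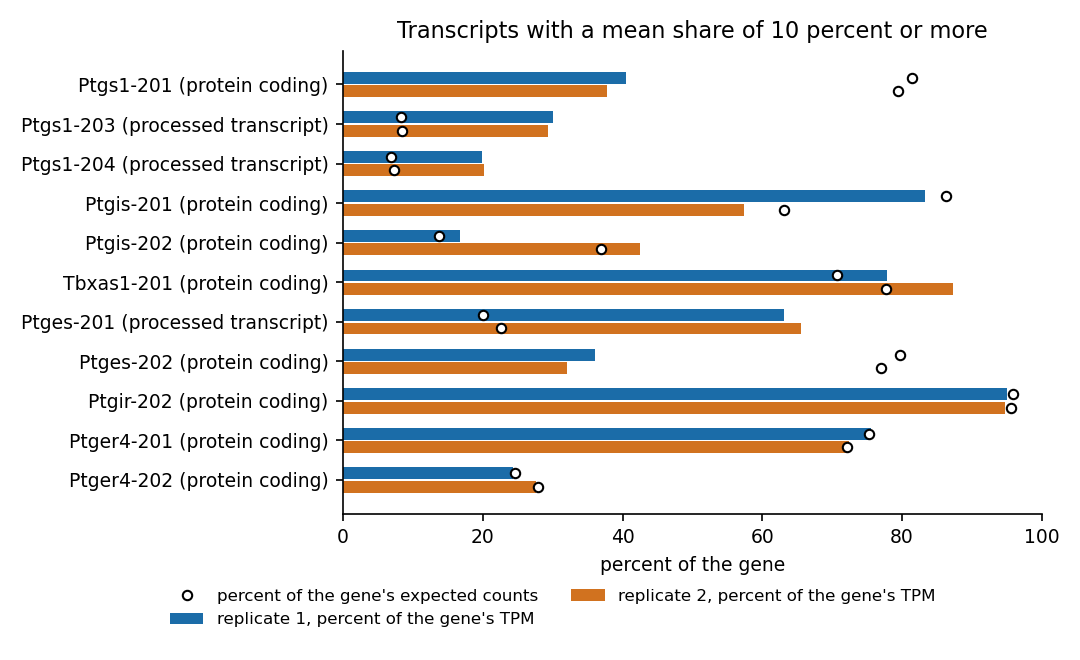
Transcripts with a mean share of 10% or more in the 6 members with several forms that reached 5 TPM in both libraries. Ptgs2 and Ptgds, which also have several annotated forms, are not shown. Bars give the percent of the gene's TPM in each library and open points the percent of its expected counts in the same library. Ptgis-202 takes 16.7% of TPM in replicate 1 and 42.6% in replicate 2, and Ptgs1-201 and Ptges-202 hold far more of the counts than of the TPM.

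Among the receptors, Tbxa2r, the thromboxane receptor gene (chromosome 10, 81328731 to 81335172, plus strand), was the highest, at 38.5 and 36.9 TPM on 2160 and 2019 counts. Ptgir, the prostacyclin receptor gene (chromosome 7, 16906490 to 16910905, plus strand), stood at 9.20 and 9.09 TPM on 1019 and 982 counts. Ptger4, the gene of the prostaglandin E receptor EP4 (chromosome 15, 5206661 to 5244187, minus strand), had 6.11 and 7.08 TPM on 677 and 766 counts. Tbxa2r exceeded Ptgir 4.18-fold and 4.06-fold, the steadiest of the 4 ratios examined. The receptor pair was thus in the opposite order to the synthase pair: thromboxane's receptor and prostacyclin's synthase had the higher mRNA level in both libraries.

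Each receptor gene had a splice choice near its 5′ end. Tbxa2r-201, the only form in the deposited transcript files, removes an intron of 3474 bases that had 362 reads. The later annotation adds Tbxa2r-202, with an extra exon in that intron, and its 2 junctions had 19 and 31 reads. Ptgir-202 took 94.8% of the gene's TPM on average, 8.74 and 8.60 TPM. It has a 5′ UTR of 271 nt and a coding sequence of 1248 nt. That coding sequence includes the 609 bases that Ptgir-201 removes as its first intron. Ptgir-201, which lacks these bases, took 4.98% and 5.33%, with 27 reads on the junction that removes them beside 109 on the intron both forms remove. Ptger4-201 and Ptger4-202 use different donors for the same acceptor and took 75.6% and 72.4% against 24.4% and 27.6%. Their own junctions had 30 and 22 reads, which is a nearer balance than the estimated shares. Ttc33 overlaps Ptger4 on the opposite strand, with 318 and 139 counts, so without strand in the counting some reads could belong to either gene.

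Hpgd, hydroxyprostaglandin dehydrogenase, which oxidises prostaglandins as the initial step of their inactivation (chromosome 8, 56294585 to 56321043, plus strand), had the highest mean level of the members. It stood at 186 and 134 TPM on 10115 and 7129 counts, a mean of 160 ± 36.5 TPM (SD, n = 2) that was above 94.2% of detected genes. Replicate 1 was the higher library, 1.18-fold after scaling (1.15 to 1.22). Squamous epithelium, skeletal muscle and neutrophil markers were also higher in replicate 1, and their part in this difference was not tested. A single transcript, Hpgd-201, carried all of its counts, and its 6 introns had 228 to 3323 junction reads. Hpgd exceeded Ptges 4.95-fold and 3.65-fold, and 12.6-fold on average when only coding transcripts were counted.

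No member differed 2-fold between the libraries. Of 9 members with a mean count of 50 or more, 0 were 2-fold apart, beside 980 of 14708 genes, or 6.66%, tested in the same way; Ptgds had too few counts. Replicate 2 exceeded replicate 1 1.35-fold in Ptgs1 (1.28 to 1.42) and 1.36-fold in Ptger4 (1.22 to 1.51), and the receptors Ptgir and Tbxa2r followed at 1.16-fold (1.06 to 1.26) and 1.12-fold (1.05 to 1.19). The median log2 ratio of the 9 (replicate 2 over replicate 1) was 0.16, beside -0.002 for all tested genes. With TMM scaling 7 of the 9 were higher in replicate 2, but only 3 were so on the log2(TPM + 0.1) scale. That scale moved the median of all genes to -0.21, and Tbxas1, Ptges, Ptgir and Tbxa2r changed side with it. Scaling by library size alone moved that median to -0.14 and turned Tbxas1 and Ptges. Ptgs1, Ptgis and Ptger4 were higher in replicate 2, and Hpgd in replicate 1, on each of these scales. Ptgs2 also lay on the side of replicate 1 on each, but its TMM ratio of 0.958 (0.834 to 1.10) was within counting error of no difference. The share of all 2-fold calls that were higher in replicate 1 was 66.8% with TMM, 77.7% with library size and 80.9% with log2(TPM + 0.1).

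**Figure D4:**
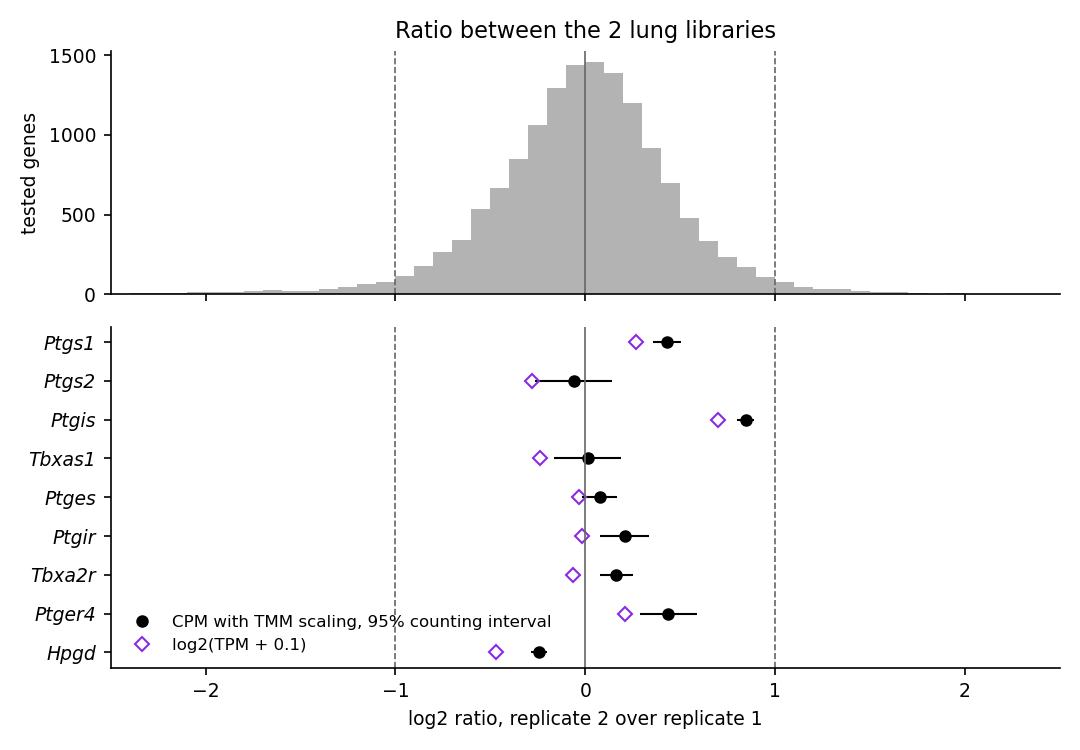
Upper panel, number of tested genes in bins of the log2 ratio of replicate 2 over replicate 1 (313 genes lie beyond the axis limits of 2.5 in either direction); lower panel, the 9 tested members with TMM scaling and a 95% counting interval, and on the log2(TPM + 0.1) scale. All 9 members lie inside the dashed 2-fold lines, with Ptgis farthest from 0 at 0.84.

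Over all members, 69 of 82 annotated introns had a line in the junction list, with 21296 reads. Another 101 junctions within the members matched no annotated intron and held 317 reads, 1.47% of the total. Hpgd and Ptgis supplied 7429 and 7671 of the annotated reads, Ptgs1 3773, Tbxa2r 849, Tbxas1 576, Ptges 470, Ptgs2 265, Ptgir 136, Ptger4 109 and Ptgds 18. These totals are not per length and are given as the evidence behind the splice readings, not as levels.

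The other genes of prostanoid metabolism were described from a list of 41 that also takes in leukotriene and lipoxygenase genes. Of these, 34 were detected in both libraries, and among 35 with enough counts 4 were 2-fold higher in replicate 1 (Pla2g4b, Pla2g4f, Ptgr1 and Alox15) and 1 in replicate 2 (Ptges3). The background for 2-fold calls in either direction is the 6.66% above. For detection, here and in each group of the list below, it is 32.0% of all gene rows.

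Of 9 phospholipase genes 6 were detected. The calcium-independent Pla2g6 was even, at 21.6 and 22.6 TPM, and the secreted Pla2g1b stood at 32.1 and 42.4 TPM. Pla2g4a, the cytosolic enzyme best known for releasing arachidonic acid, was low at 2.58 and 1.69 TPM. Pla2g4f had 11.0 and 4.10 TPM, 2.37-fold higher in replicate 1 after scaling (2.11 to 2.67). Pla2g4b had 1505 and 114 counts, but the overlapping model Gm28042 on the same strand had 45 and 390, so the split of reads between them is uncertain. Summed, the pair had 1550 and 504 counts. Squamous epithelium markers were higher in the same library as Pla2g4f and Pla2g4b, as were skeletal muscle and neutrophil markers. The part of any of these was not tested. Pla2g10 had 0 and 31 counts.

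Among other synthases and reductases 8 of 10 genes were detected. The other prostaglandin E synthase genes had 38.8 and 78.4 TPM for Ptges3, the co-chaperone p23 that also has synthase activity, and 21.0 and 13.5 TPM for the membrane-associated Ptges2. Ptges3 was 2.33-fold higher in replicate 2 (2.21 to 2.45). Ptges2 was higher in replicate 2 by scaled counts (log2 ratio 0.42) and higher in replicate 1 by TPM. The carbonyl reductase Cbr2, a lung enzyme, stood far above every other gene of the list, at 12625 and 12821 TPM. Akr1b3, an aldose reductase with prostaglandin F synthase activity, had 135 and 121 TPM.

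Of the remaining prostanoid receptors all but Ptgdr were detected. Ptger1, Ptger2 and Ptger3, which encode the other prostaglandin E receptors, had means of 6.60 ± 0.74, 4.18 ± 0.57 and 6.09 ± 0.86 TPM (SD, n = 2), close to the 6.59 ± 0.69 TPM of Ptger4. The prostaglandin F receptor gene Ptgfr had 6.70 and 4.11 TPM. Of the prostaglandin D receptor genes, Ptgdr2 had 4.23 and 6.15 TPM and Ptgdr had 1 count in each library. Tbxa2r was thus the only receptor gene of the 9 that bind prostanoids above 10 TPM. None of the 6 tested genes of the list's receptor group, which also counts the receptor-associated Ptgfrn, was 2-fold apart.

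In the group of transport and inactivation genes, Slco2a1 was abundant and the other 4 genes had means between 3.77 and 14.2 TPM. Slco2a1, the prostaglandin transporter that delivers prostaglandins to intracellular oxidation, had 255 and 311 TPM on 38968 and 41632 counts, more than any member. All 5 genes of this group were detected. Ptgr1, which reduces oxidised prostaglandins, was 2.88-fold higher in replicate 1 (2.59 to 3.20), at 21.0 and 6.24 TPM. Ptgr2 had 12.7 and 6.73 TPM and Zadh2 (also Ptgr3) 16.5 and 12.0 TPM. The efflux pump gene Abcc4 had 4.72 and 2.83 TPM.

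**Figure D5:**
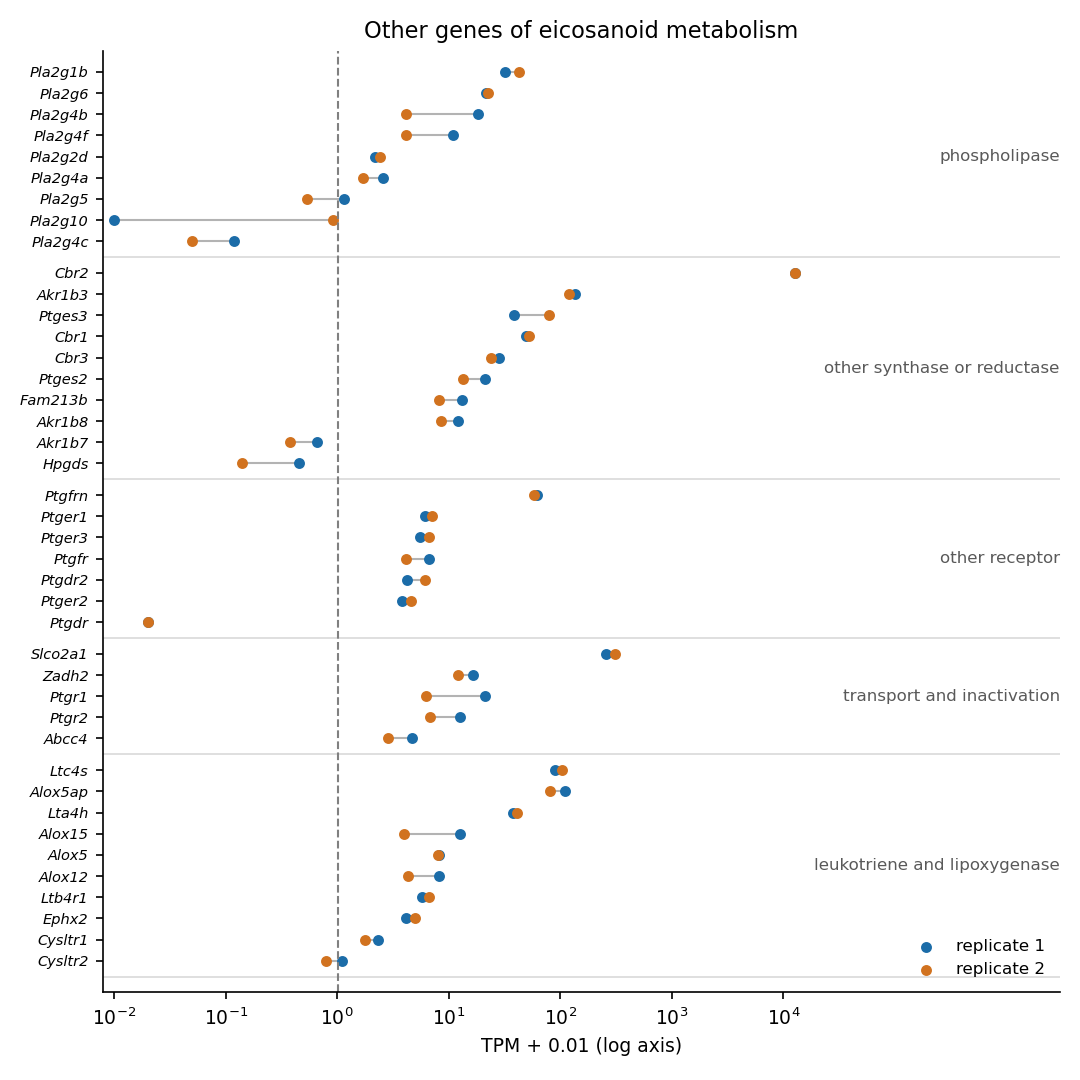
Level of each of the 41 other genes in both libraries, as TPM + 0.01 on a log axis, grouped by step; the dashed line is 1 TPM and grey lines join the 2 libraries of a gene. Cbr2 lies at 12625 and 12821 TPM and Slco2a1 at 255 and 311 TPM, while Ptgdr, Pla2g4c, Pla2g10, Hpgds and Akr1b7 lie left of the line in both libraries.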

How the data were processed

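Stranded paired-end reads of 76 nt came from polyadenylated RNA over 200 nt with spike-ins, per the labels. The deposited gene and transcript tables hold expected counts, TPM, FPKM, each transcript's percent of its gene and bounds of a TPM interval, as the authors computed them with GENCODE M4 on mm10 (per the deposited file lists). No source used here names the aligner, the quantifier or the level of the interval. Junctions, deposited on mm9, have read counts and a reproducibility score of the authors. Junctions were tied to members by intron lengths and spacing, without converting coordinates.

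Symbols, structures and sequences came from GENCODE M21, a later release on mm10; 42462 of 43346 gene rows had a symbol, and another 26248 rows name no gene and no spike-in, were not used, and had 0 and 2 counts. Rounded expected counts were scaled with TMM in edgeR 4.0.16 (R 4.3.3), with a prior count of 2, and called at 2-fold where the mean count was at least 50. DESeq2 1.42.0 size factors were an alternative. Folds have exact Clopper-Pearson 95% intervals, which cover counting error only. Python 3.11.15 with pandas 2.3.3, scipy 1.17.1, numpy 2.4.6 and matplotlib 3.10.9 did the rest. On simulated libraries over 43346 genes, 190 of 192 genes changed 4-fold and 282 of 14512 unchanged genes were called. The planted change lay beyond the 2-fold threshold, and the simulated spread was set by hand and not taken from these libraries. The simulation therefore checked the calculation and gives no error rate for these libraries.

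A transcript share was tested for a change of 20 percentage points in genes with 2 or more transcripts at 5 TPM or more in both libraries; this rule and that on own introns were chosen after the data were seen. The members and lists were chosen with earlier results of these data known. Named genes are the 10 members, every gene of the pathway list, and transcripts with the largest mean share or 10% or more; genes overlapping these, other transcripts and Scgb1a1 are named beside them as context. Alternatives covered units, thresholds, scalings, transcript sets, the junction score (0.1 or below) and leaving out a replicate.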

Additional observations from a re-analysis of the deposited data

How the results depend on the processing

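Of the alternatives for the main values, 53 stayed within the replicate SD, or within 1.5 times the reported count, and 8 did not; for single members, whose log2 ratios were set against their counting interval, these numbers were 97 and 45. With 2 libraries, leaving out either cannot move a mean beyond its SD. The median level of the members, 23.1 TPM, was 17.6 as FPKM, another unit, and 10.9 TPM on protein-coding transcripts only. The ratio of Ptgs1 to Ptgs2, 23.4 on average, fell to 9.10 on coding transcripts, and that of Hpgd to Ptges, 4.30, rose to 12.6. The median share of the main transcript, 81.4%, was 78.3% with the posterior mean estimate. At 5 TPM, 22 pathway genes were detected instead of 34. The count of all genes 2-fold apart, 980, was 1744 at a minimum mean count of 10 and 3254 without a minimum, where more genes are tested. No member was 2-fold apart under any of the 7 alternatives run. Without replicate 1 or replicate 2 the median level was 22.9 and 23.3 TPM. Without them the balances ranged from 18.9 to 27.9 (Ptgs1 to Ptgs2), 11.6 to 22.4 (Ptgis to Tbxas1), 0.239 to 0.247 (Ptgir to Tbxa2r) and 3.65 to 4.95 (Hpgd to Ptges). Members detected stayed at 9, pathway genes ranged from 34 to 36, and the median main share from 80.6% to 82.2%. With a junction score of 0.1 or below, 21262 of 21296 reads remained. Ptgds, on 14 and 16 counts, and Ptgdr, on 1 count each, are limited by depth. No paired analysis was possible because there was 1 group.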

Other observations

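The neighbouring branch of arachidonic acid metabolism, the leukotriene and lipoxygenase genes, was detected in 9 of 10 cases. Ltc4s, the leukotriene C4 synthase gene, stood at 89.4 and 104 TPM, and Alox5ap, whose product presents arachidonic acid to the 5-lipoxygenase, at 109 and 80.3 TPM. Alox5, the gene of that lipoxygenase, was lower and even, at 8.10 and 8.00 TPM, and Lta4h, which makes leukotriene B4, had 37.6 and 40.6 TPM. The receptor genes were low, at 2.29 and 1.75 TPM for Cysltr1, 1.10 and 0.79 TPM for Cysltr2, and 5.75 and 6.58 TPM for Ltb4r1. Alox15 was 2.38-fold higher in replicate 1 (95% counting interval 2.08 to 2.72), at 12.6 and 3.95 TPM. Alox12, the platelet-type lipoxygenase gene, had 8.16 and 4.27 TPM. In replicate 1, 5 of 6 platelet markers were also higher, as were 5 of 6 macrophage markers and all 5 neutrophil markers. The part of any of these in the difference was not tested. Ephx2, an epoxide hydrolase gene, had 4.11 and 5.02 TPM.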
